A study of Mus musculus with 26 samples.

Results

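RNA polymerase II HiChIP, which joins DNA fragments that lay together in cross-linked nuclei and enriches those bound by the polymerase, was used on mouse E14 cells labelled as neural progenitor cells. The loops described here are those with 10 or more paired-end tags in the Klf4-KO-labelled loop list for which no loop of the WT-labelled list, at any tag count, had anchors overlapping both anchors by 1 base or more in either order. The loops were thus chosen by their tag counts and by their absence from the other list, and both are given as a description. There were 7310 such loops among the 9597 strong loops of the KO-labelled list (76.2%, exact 95% binomial interval 75.3 to 77.0) and among the 632860 loops of both lists. They are called KO-alone loops below.

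The study used E14 embryonic stem cells, grown on gelatin with serum, LIF and the inhibitors PD0325901 and CHIR99021, in a WT-labelled and a Klf4-KO-labelled form. The labels state 12 days of neural induction for the RNA-seq samples and name the HiChIP samples as NPC without a day. Each assay had 2 WT-labelled and 2 KO-labelled samples, and each genotype had 1 deposited loop list that both HiChIP replicates name, so the lists have no replicate spread and no test between them was possible. Intervals on shares of loops, and on ratios of RNA counts summed over the 2 libraries of a label, cover counting error only. The labels do not say how many clones the KO-labelled cells came from or how the Klf4 gene was altered.

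The targeted gene went against the labels. Klf4, a zinc-finger pluripotency factor, had counts of 0, 0, 2571 and 2538 in WT-labelled 1 and 2 and KO-labelled 1 and 2 of the RNA libraries, and the 2 labels are used below only as names. The naive and core pluripotency genes Pou5f1 and Nanog had 835 and 847 CPM (counts scaled to TMM-adjusted library sizes) and 1140 and 1140 CPM in the WT-labelled libraries, against 429 and 431 CPM and 406 and 407 CPM with the KO label, so all 4 libraries held pluripotency RNA. The neural progenitor gene Pax6, with no loop in either list, reached 3.5 and 3.63 CPM with the KO label against 0.171 and 0 CPM with the WT label. In these bulk samples fewer cells of a type and less RNA per cell cannot be told apart. The RNA libraries held 29835774 to 37703866 counts assigned to genes. The KO-labelled loop list was the larger, with 489409 loops and 977208 tags against 143451 loops and 407150 tags, and its anchors covered 172.8 Mb against 92.5 Mb. Scaled by those totals, 10 tags in the KO-labelled list correspond to 4.17 tags in the WT-labelled one.

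RNA polymerase II transcribes protein-coding genes, and its HiChIP loops typically join start sites of genes to other start sites, to enhancers, or to stretches of transcribed gene body. Klf4 belongs to the Krüppel-like factors, zinc-finger proteins that bind GC-rich sites of the CACCC type. During neural differentiation of embryonic stem cells, pluripotency genes are normally shut off and genes such as Sox1, Nes and Pax6 come on in progenitors, with Olig2, Sox10 and Cspg4 marking later glial lineages.

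Promoter sequences are shown for genes at the ends of the strongest KO-alone loops with a start window of 2 different genes in the promoter table at both anchors, for the leading hub of such loops that holds a promoter entry, and for 3 lineage genes named after their values were seen. They are from RefSeq on GRCm38.p6, run 5′ to 3′ on the strand of the gene, and hold 250 bases before and 50 after the start. Capitals mark GGGNGTGG, a form of the site bound by Krüppel-like factors, on either strand. Srebf1 (chr11:60222532-60222831, minus strand), the sterol-regulated transcription factor, and the gene model Gm38501 (chr11:60258801-60259100, minus strand) stand at the ends of a loop with 105 tags. A stronger loop with windows at both anchors, between Carmn and Il17b with 115 tags, is not shown because the table has no entry for these genes.

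Srebf1: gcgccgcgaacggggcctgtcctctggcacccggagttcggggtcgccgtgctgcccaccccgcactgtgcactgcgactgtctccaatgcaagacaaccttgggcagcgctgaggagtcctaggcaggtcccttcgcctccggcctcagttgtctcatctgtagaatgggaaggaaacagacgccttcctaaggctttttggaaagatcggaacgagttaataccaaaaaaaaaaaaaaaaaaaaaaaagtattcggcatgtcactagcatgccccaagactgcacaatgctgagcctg

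Gm38501: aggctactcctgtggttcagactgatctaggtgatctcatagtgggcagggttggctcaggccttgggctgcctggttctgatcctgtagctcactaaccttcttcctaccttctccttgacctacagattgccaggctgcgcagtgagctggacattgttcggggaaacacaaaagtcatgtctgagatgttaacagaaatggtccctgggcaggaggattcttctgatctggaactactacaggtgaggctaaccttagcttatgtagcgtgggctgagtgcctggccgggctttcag

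The genes 4833439F03Rik (chr5:113137562-113137861, plus strand) and 2900026A02Rik (chr5:113163264-113163563, minus strand) stand at the ends of a loop with 100 tags, and the second holds 1 match on the reverse strand.

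4833439F03Rik: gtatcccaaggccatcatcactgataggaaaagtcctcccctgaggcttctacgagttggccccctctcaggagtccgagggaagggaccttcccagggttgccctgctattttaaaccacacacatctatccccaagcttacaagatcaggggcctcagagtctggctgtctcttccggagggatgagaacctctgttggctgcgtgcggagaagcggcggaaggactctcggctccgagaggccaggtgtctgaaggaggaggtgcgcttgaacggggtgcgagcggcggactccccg

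2900026A02Rik: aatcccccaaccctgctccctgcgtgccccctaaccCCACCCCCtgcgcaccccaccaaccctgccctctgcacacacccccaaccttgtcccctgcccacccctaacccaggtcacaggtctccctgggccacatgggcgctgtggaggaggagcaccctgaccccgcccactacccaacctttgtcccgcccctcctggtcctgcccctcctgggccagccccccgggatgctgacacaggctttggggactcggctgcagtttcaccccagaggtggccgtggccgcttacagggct

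The gene model AW047730 (chr3:88198024-88198323, plus strand) lies in an anchor joined by 24 KO-alone loops and holds 1 match.

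AW047730: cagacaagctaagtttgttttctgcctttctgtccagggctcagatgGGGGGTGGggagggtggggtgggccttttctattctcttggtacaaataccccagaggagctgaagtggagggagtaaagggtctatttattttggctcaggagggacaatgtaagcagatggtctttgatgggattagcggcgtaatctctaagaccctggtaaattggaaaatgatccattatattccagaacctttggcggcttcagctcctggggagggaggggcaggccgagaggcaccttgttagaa

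Olig2 (chr16:91225300-91225599, plus strand) and Cspg4 (chr9:56864854-56865153, plus strand), genes of oligodendrocyte precursors, and Nes (chr3:87970843-87971142, plus strand), the intermediate filament gene of neural progenitors, have no match, and neither do the promoters of Srebf1, Gm38501 and 4833439F03Rik. The 3 lineage genes are shown because KO-alone loops at them carried 54, 54 and 66 tags.

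Olig2: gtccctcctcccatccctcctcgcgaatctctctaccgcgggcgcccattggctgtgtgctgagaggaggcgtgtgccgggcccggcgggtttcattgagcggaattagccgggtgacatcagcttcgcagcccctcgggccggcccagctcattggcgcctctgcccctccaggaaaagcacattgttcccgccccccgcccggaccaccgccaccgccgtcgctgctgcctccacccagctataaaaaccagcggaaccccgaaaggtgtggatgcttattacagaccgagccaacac

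Cspg4: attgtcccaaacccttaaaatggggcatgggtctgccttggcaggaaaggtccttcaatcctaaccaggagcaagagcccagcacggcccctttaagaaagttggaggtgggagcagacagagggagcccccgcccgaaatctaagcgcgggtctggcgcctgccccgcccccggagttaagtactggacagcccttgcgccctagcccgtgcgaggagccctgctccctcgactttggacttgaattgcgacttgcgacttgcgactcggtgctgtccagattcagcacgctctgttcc

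Nes: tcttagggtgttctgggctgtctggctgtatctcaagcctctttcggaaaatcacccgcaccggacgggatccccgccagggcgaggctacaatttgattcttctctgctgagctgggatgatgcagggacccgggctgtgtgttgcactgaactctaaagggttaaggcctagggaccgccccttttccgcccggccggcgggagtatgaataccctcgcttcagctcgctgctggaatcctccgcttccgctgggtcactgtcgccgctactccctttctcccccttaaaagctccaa

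The motif stood in 22.2% of 3105 promoters at anchors of KO-alone loops, in 24.3% of 2687 at anchors of strong loops found in both lists, in 21.2% of 2015 at anchors of strong loops of the WT-labelled list alone, and in 17.6% of all 32851 promoters of the same 300-base length. The median GC content of these promoters was 58.7%, 60.7%, 58.0% and 52.7% in the same order, and its part in the motif shares was not tested. A match is a match of letters only.

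KO-alone loops held 10 to 192 tags, with a median of 13 and an upper quartile of 19. The authors' false discovery rate reached at most 0.0489 among them. At the threshold, 1289 of 1654 KO-labelled loops with exactly 10 tags had no counterpart in the WT-labelled list (77.9%), and 1654 of 2145 with 9 tags had none (77.1%). The share fell little with strength, from 76.8% of loops with 10 to 14 tags to 69.9% of the 163 loops with 50 or more. Of the 1243 KO-labelled loops with 25 tags or more, a minimum chosen after seeing the data to stand near 10 tags of the smaller list, 894 were absent from the WT-labelled list (71.9%). In the other direction 3866 of 6577 strong WT-labelled loops were absent from the KO-labelled list (58.8%). Chromosomes 11 and 2 held the most KO-alone loops, 890 and 854, and the X chromosome held 2 of its 10 strong loops. Among the autosomes the share of strong loops that were KO-alone ran from 66.7% on chromosome 10 to 84.8% on chromosomes 14 and 18.

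KO-alone loops were short. Their anchor centres lay 5.01 to 1682 kb apart with a median of 16.9 kb (quartiles 9.68 and 38.5 kb), against a median of 23.5 kb for strong KO-labelled loops also found in the WT-labelled list and 21.8 kb for strong WT-labelled loops alone. The gap between the inner edges of the anchors had a median of 9.53 kb, against 16.3 and 13.6 kb. A gap under 2 kb was seen in 15.8% (15.0 to 16.6) of KO-alone loops, 6.73% (5.74 to 7.84) of shared strong loops and 13.6% of WT-alone loops. Spans of 100 kb or more made up 8.08%, 10.8% and 14% in the same order. The false discovery rate reached 0.0489, 0.0344 and 0.523 in these sets. At a rate of at most 0.01 the median span of KO-alone loops was 19.6 kb. The other sets were not measured at that cut, so the part of the rate in these differences was not tested.

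**Figure D1:**
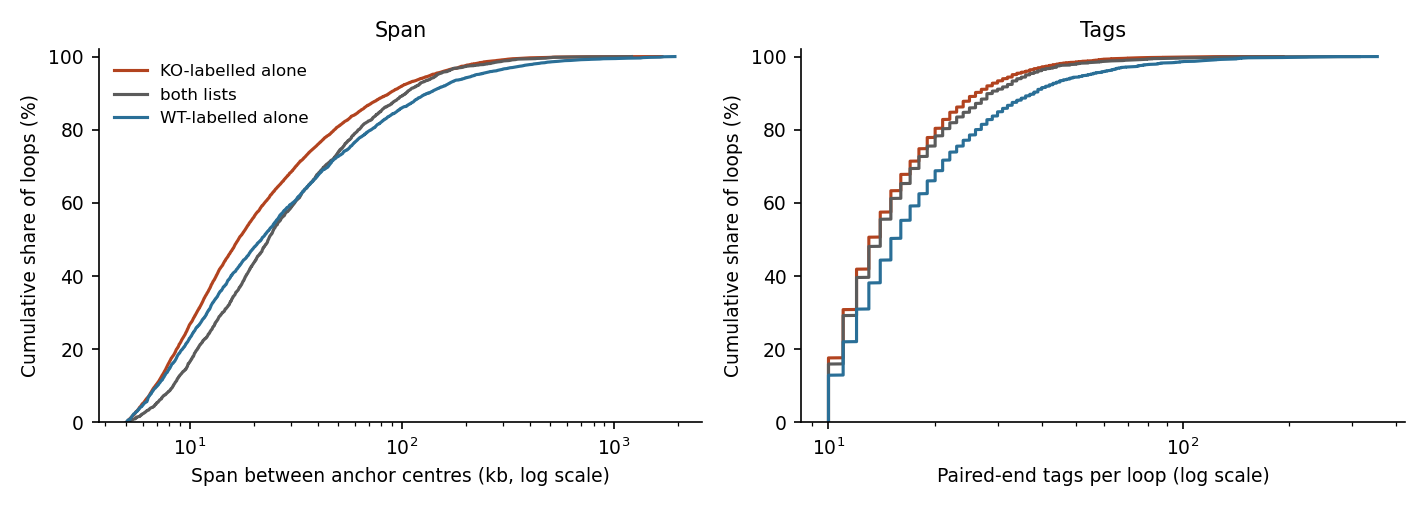
Cumulative share of strong loops (%) against span between anchor centres in kb (left) and against paired-end tags (right), both on log axes, for KO-alone loops, strong KO-labelled loops also in the WT-labelled list, and strong WT-labelled loops alone. The KO-alone curve of span lies to the left, with a median of 16.9 kb against 23.5 and 21.8 kb; median tags were 13, 14 and 15.

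Gene start sites were less frequent at KO-alone loops than at shared strong loops. A start window, 2500 bases either side of an annotated start, lay at both anchors of 18.7% of KO-alone loops (17.9 to 19.7), at 1 anchor of 43.1% and at neither of 38.2%. The share with both depended on the window, at 12.1% with 0 bases and 46.7% with 10000 bases. Among shared strong loops both anchors held a window in 55.4% (53.3 to 57.5) and neither in 9.14%. WT-alone loops had 14.9%, 50.3% and 34.8% with windows at both, 1 and neither anchor, so loops absent from the other list were low in start-to-start pairs in both directions. For 7586 of 34610 genes the tables gave no start, and windows around either annotated end were used.

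Gene bodies were the most common setting. Of the 7473 distinct anchors of KO-alone loops, 45.3% overlapped a gene body without a start window, 38.4% held a start window and 16.3% touched no gene. Anchors of shared strong loops had 18.4%, 71.8% and 9.78% in these classes, and anchors of WT-alone loops 33.0%, 41.0% and 26.1%. Both anchors fell in the body of a single gene in 50.6% of KO-alone loops (49.5 to 51.8), against 27.7% of shared and 32.2% of WT-alone loops.

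The WT-labelled list often lacked the anchors as well as the loops. This held for the KO-labelled list as a whole. Of the 7473 anchors of KO-alone loops 28.5% overlapped a WT-labelled anchor, near the 27.6% of all 51088 KO-labelled anchors. Neither anchor overlapped any anchor of the WT-labelled list in 49.5% of KO-alone loops (48.4 to 50.7), 1 anchor did in 46.1%, and both did in 4.32% (3.87 to 4.81), which is 316 loops between regions that the WT-labelled list holds but does not join. The share was 18.2% of 8552 loops when a match needed an overlap of 50% of the anchor. The loops which that setting adds are joined by a WT-labelled loop under the 1-base rule, so the rise follows from the rule. The strongest of those 316 had 66 tags, and the next, with 63 tags, joined the starts of Dgkz, a diacylglycerol kinase gene, and Creb3l1, a transcription factor gene of secretory cells. For WT-alone loops and KO-labelled anchors the shares were 26.3%, 67.2% and 6.52%, with a KO-labelled list that covers more of the genome. The anchors of KO-alone loops that held a start window overlapped a WT-labelled anchor in 51.7% (49.9 to 53.6), and those without one in 14.1% (13.1 to 15.1).

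**Figure D2:**
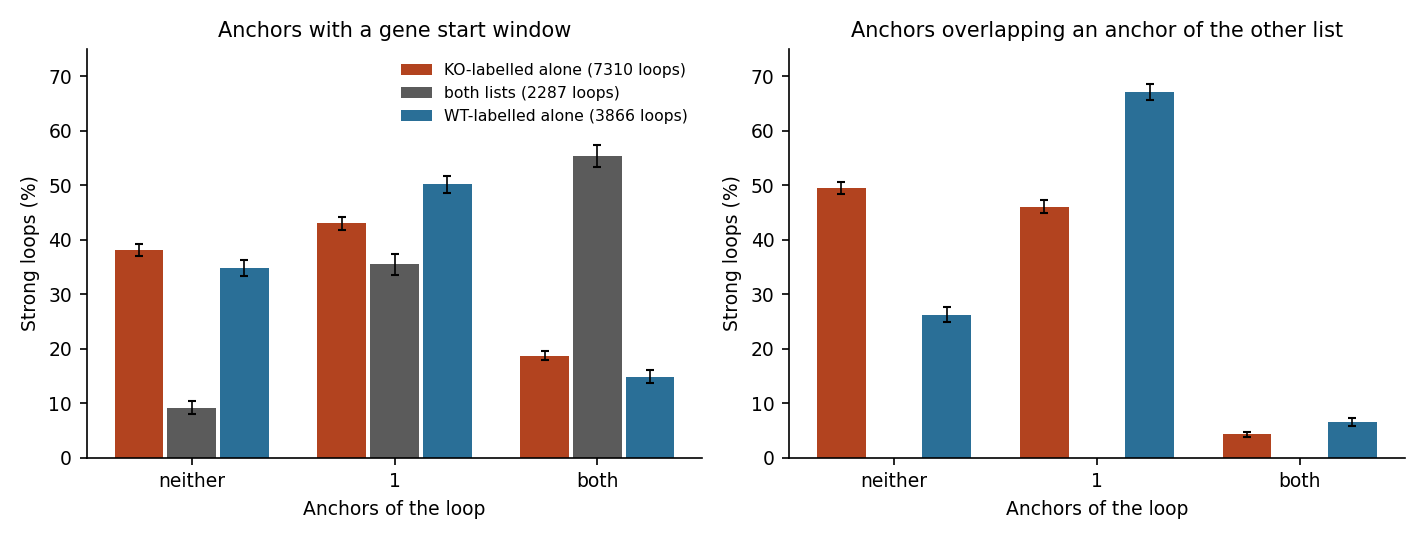
Share of strong loops (%) by the number of their anchors that hold a start window (left; KO-alone, shared and WT-alone loops) and by the number that overlap any anchor of the other list (right; KO-alone and WT-alone loops). Bars are shares and lines exact 95% binomial intervals; start windows at both anchors mark 18.7% of KO-alone and 55.4% of shared loops, and 49.5% of KO-alone loops have no anchor in the other list.

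Many KO-alone loops shared anchors. Such sharing was not counted for the other sets of strong loops. Of the 7473 anchors of KO-alone loops, 4503 took part in 1 such loop and 87 in 10 or more. Joined through shared anchors, the loops fell into 1837 groups, of which 964 were lone loops and 154 held 10 or more loops each and 3830 loops together. Anchor width went with the number of loops: 3.42% of anchors with 1 loop were 10 kb or wider, 56.0% of those with 5 or more and 94.3% of those with 10 or more, and its part in the counts of loops per anchor was not tested.

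The leading hub, chr2:165248347-165278387, is 30.0 kb wide, overlaps the body of Slc35c2, a nucleotide sugar transporter family gene, and was joined by 26 KO-alone loops with 632 tags. The next, chr3:88197397-88243975, is 46.6 kb wide, holds windows of AW047730, Gm3764 and Rhbg, an ammonium transporter gene, and was joined by 24 loops with 445 tags. The hubs chr7:145090411-145116065, which touches no gene, chr2:167740842-167767156 at the gene model Gm52570, and chr15:78663744-78695055 overlapping the body of Elfn2, a synaptic adhesion gene, had 23 loops each. Of these 5 hubs only the one at Gm52570 overlapped an anchor of the WT-labelled list.

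The largest group, 106 loops over 80 anchors and 1683.8 kb of chromosome 15, reached from the start of Myh9, the non-muscle myosin heavy chain gene, through Lgals1, a galectin gene, and Sox10, the transcription factor of neural crest and oligodendrocytes. Windows of Lgals1 and Sox10 are at either annotated end. A group of 85 loops with 1842 tags held a window of Ccnd1, the cyclin D1 gene. A group of 90 loops on chromosome 2 held Cebpb, a transcription factor gene of myeloid and fat cells, and Ptpn1, a tyrosine phosphatase gene. Groups of 81 loops at Zfp36l2, an RNA-binding protein gene, and 87 loops at Hrh1 are described below.

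RNA-seq, which the choice of loops did not use, gave an independent measure of the genes at these anchors. Of all 17273 genes tested with edgeR's quasi-likelihood test, 73.1% were called at a Benjamini-Hochberg adjusted p below 0.05, 37.2% as higher and 35.8% as lower in KO-labelled libraries, so calls were common everywhere. A start window at an anchor of a KO-alone loop was found for 3297 genes, of which 2560 had a row in the count tables and 2049 passed the filter on low counts. Of those 2049, 918 were higher (44.8%) and 695 lower (33.9%), with a median log2 fold change of 0.16 against 0.026 over all genes tested. Changes of 2-fold or more were called as higher for 26.5% and as lower for 9.22%, against 22.3% and 11.4% of all genes tested. Anchor genes could only come from the 14828 tested genes with an annotated start. Of those, 40.1% were higher and 37.8% lower, with a median of 0.04, and 23.4% and 10.8% were so by 2-fold or more. These directions hold only if the RNA libraries and the loop list of 1 label come from the same cells, which the Klf4 counts leave unsettled; with the labels of 1 assay exchanged, 44.8% of the 2049 would be lower and 33.9% higher, and 37.2% of all genes lower and 35.8% higher. Scaling by library size alone moved the median of all genes from 0.026 to 0.24 and the share of higher calls among called genes from 50.9% to 62.0% over all genes and from 56.9% to 66.7% at these anchors. Passing the filter depends on the level itself, so these counts describe the genes tested and not all 3297.

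Genes at the other strong loops were more often lower than higher. At anchors of shared strong loops 32.2% of 2105 tested genes were higher and 46.4% lower, with a median of -0.12, and at anchors of WT-alone loops 21.1% of 1585 were higher and 61.5% lower, with a median of -0.42. KO-alone anchors shared 1104 genes with shared-loop anchors (33.5% of the former and 41.2% of the latter) and 401 with WT-alone anchors (12.2% and 18.4%). The 1135 tested genes at KO-alone anchors and no other strong loop were higher in 50.9% and lower in 27.8%, with a median of 0.38. Genes whose body overlapped both anchors of a KO-alone loop were higher in 52.6% and lower in 26.9% of 1230, with a median of 0.42. The differences between these sets were not tested, since genes are not replicates of a condition.

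Many genes at KO-alone anchors had almost no RNA. Of the 2560 with a count row, 511 fell below the filter on low counts (19.96%, 18.4 to 21.6), against 8.95% at shared-loop anchors, 9.32% at WT-alone anchors and 40.5% of all genes with a start in the tables. The share was 29.1% (66 of 227) among genes with 5 or more KO-alone loops. Adora1, the adenosine A1 receptor gene, had 18 KO-alone loops with 381 tags and counts of 0, 0, 9 and 7 in WT-labelled 1 and 2 and KO-labelled 1 and 2. Rhbg, with 24 loops from the hub that holds 1 of its ends, had counts of 3, 2, 7 and 10. Carmn, a smooth muscle long non-coding RNA, with 10 loops and 316 tags, had 0, 0, 0 and 1.

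**Figure D3:**
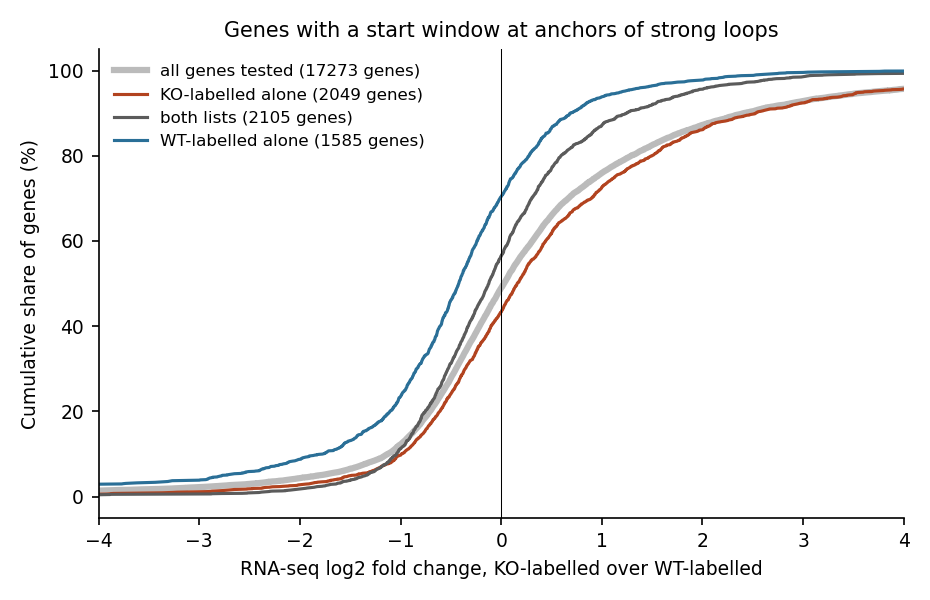
Cumulative share of tested genes (%) against RNA-seq log2 fold change, KO-labelled over WT-labelled, for genes with a start window at anchors of KO-alone, shared and WT-alone strong loops and for all 17273 genes tested. Medians were 0.16, -0.12, -0.42 and 0.026; a gene can stand in several curves.

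The strongest KO-alone loops joined broad, neighbouring anchors. Among the 15 with most tags, 28 of 30 anchor ends were 10 kb or wider and 13 loops had a gap under 6 kb. Start windows stood at both anchors of 4 of the 15 and at 1 anchor of the rest, and in 10 of the 15 exactly 1 anchor overlapped a WT-labelled anchor. The strongest, 192 tags over 30.1 kb, joined chr8:110669627-110680678 in the body of Vac14, a scaffold gene of phosphoinositide metabolism, to chr8:110682073-110728486, which holds the start of Mtss2, a membrane-bending actin regulator. A second loop of 119 tags joined the same Mtss2 anchor to a further stretch of Vac14. Mtss2 RNA was 16.7 and 16.7 CPM in WT-labelled and 25.4 and 23.2 CPM in KO-labelled libraries. The libraries of the 2 labels did not overlap, and the log2 fold change was 0.54 ± 0.099 (SE; edgeR adjusted p 3.51e-05). Vac14 moved the other way, from 78.1 and 79.4 CPM to 60.0 and 58.8 CPM (log2 fold change -0.41 ± 0.053, edgeR adjusted p 2.21e-07).

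A chain on chromosome 17 supplied 4 of the 15 strongest, with 129, 122, 106 and 100 tags between 5 successive anchors from position 84065533 to 84166447, over the gene models 4933433H22Rik and Gm19696. It lay in a group of 81 loops with 2094 tags that also held Zfp36l2, which codes for an RNA-destabilising zinc-finger protein. Zfp36l2 itself had 7 KO-alone loops with 166 tags at a window around either end, the strongest 39 tags over 68.1 kb. Its RNA was 51.8 and 56.1 CPM in WT-labelled and 133 and 134 CPM in KO-labelled libraries, with no overlap. The log2 fold change was 1.31 ± 0.049 (edgeR adjusted p 9.21e-18).

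**Figure D4:**
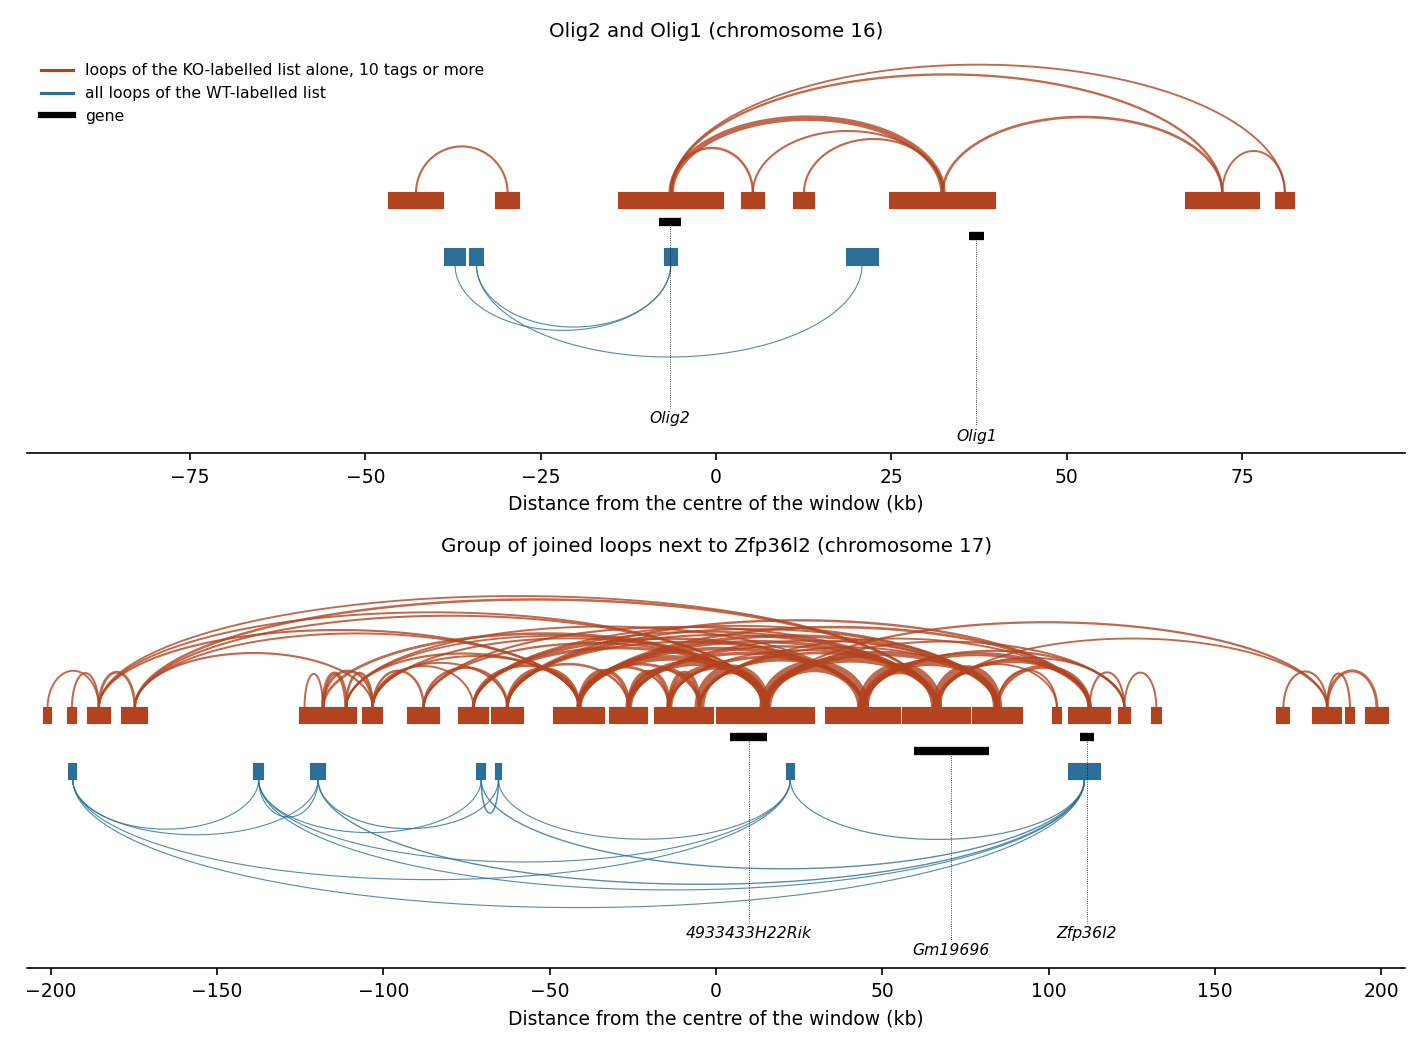
Loops around Olig2 and Olig1 on chromosome 16 (top, 196.4 kb) and in the Zfp36l2 group on chromosome 17 (bottom, 414 kb), with distance from the window centre in kb on the horizontal axis; blocks are anchors, arcs join anchor centres, line width grows with tags and arc height with span. Above the genes are 9 and 81 KO-alone loops, and below them the 3 and 14 loops of any tag count that the WT-labelled list holds wholly inside each window.

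Other leading loops lay at genes that moved in both directions. Srebf1 had 21 KO-alone loops with 444 tags, and its RNA fell from 138 and 129 CPM to 80.9 and 80.2 CPM (log2 fold change -0.73 ± 0.045, edgeR adjusted p 2.37e-13). Bmp7, a ligand of the BMP pathway, had 8 loops with 231 tags at either end, and rose from 14.5 and 14.6 CPM to 27.6 and 27.9 CPM (0.93 ± 0.097, edgeR adjusted p 4.44e-09). Zcchc24, a zinc-finger gene with 10 loops and 261 tags, rose from 7.12 and 8.89 CPM to 29.6 and 28.7 CPM (1.87 ± 0.12, edgeR adjusted p 2.35e-13). In each of these 3 the libraries of the 2 labels did not overlap. Septin9, a cytoskeletal GTPase gene with 13 loops and 476 tags, had 169 and 166 CPM against 154 and 158 CPM; its log2 fold change of -0.10 (edgeR adjusted p 0.0131) became 0.11 when libraries were scaled by size alone. Hrh1, a histamine receptor gene, had 14 loops with 324 tags and counts of 2, 1, 31 and 15, a ratio of 13.7 (exact 95% interval 4.41 to 69.0) that is higher in KO-labelled libraries, and its call was lost without KO-labelled replicate 1 (edgeR adjusted p 0.0744).

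Some gene bodies overlapped both anchors of many KO-alone loops. Tns1, the focal adhesion gene tensin 1, had 44 such loops with 709 tags over 214.3 kb, and Rgs3, a regulator of G-protein signalling, 37 over 143.2 kb. Gse1, a coiled-coil protein gene, had 36 over 352.9 kb, and Sorcs2, a sorting receptor gene, 34 over 381.0 kb. These genes were named after their counts were seen. RNA of Tns1 was 41.5 and 44.1 CPM in WT-labelled and 16.7 and 17.6 CPM in KO-labelled libraries, and fell by 1.31 ± 0.083 on the log2 scale (edgeR adjusted p 3.79e-13). Rgs3 rose from 4.16 and 3.90 CPM to 12.9 and 13.5 CPM (1.71 ± 0.15, edgeR adjusted p 3.77e-10). Gse1 (60.3 and 57.3 against 53.4 and 55.1 CPM, edgeR adjusted p 0.0750) and Sorcs2 (3.51 and 3.22 against 3.41 and 4.35 CPM, edgeR adjusted p 0.453) did not pass the test. Prex1, a Rac exchange factor gene with 27 such loops, rose from 10.9 and 12.0 CPM to 46.3 and 45.2 CPM (2.00 ± 0.089, edgeR adjusted p 2.93e-16). Loops with both anchors at 1 gene body thus stood beside RNA that was higher, lower or not called.

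Several glial genes had KO-alone loops and almost no RNA. Of 15 glial list genes, 8 had a KO-alone loop at a start window (Aldh1l1, Cspg4, Gfap, Mbp, Nfib, Olig1, Olig2 and Sox10) and 0 had a WT-alone strong loop. Over all 34610 genes with start windows, 3297 had a KO-alone loop and 2177 a WT-alone one. Shared strong loops stood at 2 genes of the glial list, 9 at Aldh1l1 and 1 at Olig2. Olig2 and Olig1, neighbouring transcription factor genes of the oligodendrocyte lineage, were joined to each other by a loop of 54 tags over 38.7 kb, chr16:91219916-91234775 to chr16:91258615-91273550, and each took part in 4 KO-alone loops. Windows of Olig1, Sox10, Mbp and Nfib are at either annotated end. All loops of any strength at Olig2 held 216 tags in the KO-labelled and 11 in the WT-labelled list, and those at Olig1 held 227 and 0. In RNA, Olig2 had counts of 0, 0, 0 and 1 and Olig1 of 1, 3, 18 and 6 in WT-labelled 1 and 2 and KO-labelled 1 and 2, and both fell below the filter.

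Cspg4, which codes for the NG2 proteoglycan of oligodendrocyte precursors and pericytes, had 10 KO-alone loops with 202 tags, all from the anchor chr9:56863424-56887261. The far ends lay 14.1 to 559 kb away and included anchors at the starts of Snx33, a sorting nexin gene, Imp3, a nucleolar protein gene, and Sin3a, a corepressor gene. The KO-labelled list held 395 tags at Cspg4 and the WT-labelled list 0. Its RNA was 0.456 and 0.542 CPM in WT-labelled and 1.66 and 1.37 CPM in KO-labelled libraries, a log2 fold change of 1.6 ± 0.49 (edgeR adjusted p 0.00489) that was not called without KO-labelled replicate 1 (edgeR adjusted p 0.0606). Sox10 had 5 KO-alone loops with 122 tags, 427 tags in the whole KO-labelled list and 0 in the WT-labelled list. Its counts were 10, 0, 15 and 14, and it was not called (edgeR adjusted p 0.152), though it was without WT-labelled replicate 1 (edgeR adjusted p 0.0156). Gfap, the astrocyte filament gene, had 137 tags against 0 and counts of 10, 9, 6 and 15.

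Mbp, the myelin basic protein gene, had 2 KO-alone loops at an annotated end, and a loop of 90 tags inside its body was among the 15 strongest. Its RNA rose from 7.35 and 6.29 CPM to 17.2 and 19.5 CPM (1.42 ± 0.13, edgeR adjusted p 5.89e-10). Nfib, a nuclear factor I gene of glial development, had 2 loops of 32 tags each, and its RNA fell from 28.6 and 27.6 CPM to 5.40 and 5.47 CPM (-2.37 ± 0.12, edgeR adjusted p 2.33e-15). Of the 5 glial genes with a KO-alone loop that were tested, 2 were higher and 2 lower, and over the whole list 7 of 10 were higher and 2 lower. Aldh1l1, a folate enzyme gene of astrocytes with 4 loops and 20.3 and 17.7 CPM in WT-labelled libraries, was 1 of the 2; its call (log2 fold change -0.30 ± 0.12, edgeR adjusted p 0.0215) was lost with DESeq2, with 2 other scalings and without WT-labelled replicate 1 or KO-labelled replicate 1.

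Neural progenitor genes followed, to be read against the same 3297 and 2177 of 34610 genes with a KO-alone and a WT-alone loop. Of 20 on the list, 8 had a KO-alone loop (Hes1, Hes5, Meis2, Ncan, Nes, Pou3f2, Pou3f3 and Sox1) and 1 had a WT-alone loop. Nes had 3 KO-alone loops with 28, 66 and 16 tags; the last reached 248 kb to the hub at Rhbg. Loops at Nes held 224 tags in the KO-labelled and 31 in the WT-labelled list, and 2 strong loops were shared. Nes RNA was 73.4 and 73.3 CPM against 94.4 and 98.9 CPM, a rise of 0.40 ± 0.049 (edgeR adjusted p 7.32e-08). Sox1, the earliest neural marker among the SoxB1 genes, had 1 KO-alone loop of 12 tags and rose from 3.02 and 1.59 CPM to 13.0 and 15.3 CPM (2.58 ± 0.21, edgeR adjusted p 4.01e-10). Ncan, the neurocan gene, had 1 loop of 10 tags and rose from 1.17 and 0.939 CPM to 8.29 and 8.51 CPM (2.98 ± 0.24, edgeR adjusted p 2.96e-11). Of the 7 of these 8 genes that were tested, 5 were higher and 0 lower. Among the 5, Pou3f2 had counts of only 1, 0, 11 and 20, and Pou3f3 of 17, 3, 58 and 70. The log2 fold change of Pou3f3 was 4.02 without WT-labelled replicate 1 and 1.89 without WT-labelled replicate 2. Hes1 and Meis2 were not called, and Hes5, a Notch target, had counts of 0, 0, 7 and 4. Over the whole list 15 of 19 tested genes were higher and 2 lower.

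Pluripotency genes stood at the other loops. Of 25 naive and core pluripotency genes, 2 had a KO-alone loop (Sox2 and Lefty1) and 17 had a WT-alone strong loop. The 2 were near the share over all genes, 3297 of 34610. For WT-alone loops that share was 2177 of 34610. The KO-labelled list held 0 tags at Pou5f1 and 0 at Nanog, where the WT-labelled list held 458 and 525. Sox2, which serves both pluripotent and neural cells, had 223 tags in the KO-labelled and 239 in the WT-labelled list, with 1 KO-alone, 3 shared and 3 WT-alone strong loops. Klf4 had 33 and 41 tags and no strong loop of its own in any set. The KO-labelled list held 977208 tags in all and the WT-labelled list 407150. Scaled to a common list total, Sox2 stood at 22.8 in the KO-labelled against 58.7 in the WT-labelled list. Klf4 stood at 3.38 against 10.1 on that scale, so both genes were higher in the WT-labelled list. RNA in the KO-labelled libraries kept 429 and 431 CPM of Pou5f1 and 406 and 407 CPM of Nanog, where the loop list of that label held 0 tags. Tags in a loop list and an RNA level are unlike measures. Between the labels both assays were lower with the KO label at these genes, with RNA log2 fold changes of -0.97 and -1.49. Lefty1, a Nodal antagonist gene at chr1:180935022-180938401, had 3 KO-alone loops, all from the anchor chr1:180940007-180948466. That anchor lies outside the gene, within the window of 1 annotated end, and also holds windows of Tmem63a and Gm39715. Lefty1 RNA rose from 27.2 and 25.5 CPM to 97.6 and 94.3 CPM (1.86 ± 0.061, edgeR adjusted p 4.97e-19). Over the list, 7 of 25 tested genes were higher and 18 lower.

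Other lineage lists had few members. Among all 34610 genes with start windows, 3297 had a KO-alone and 2177 a WT-alone loop. The counts for neuronal, endoderm, neural crest, endothelial, loop architecture and trophoblast genes were near the KO-alone share. Of 20 mesoderm and muscle genes, 4 had a KO-alone loop (Acta2, Myl9, Tagln and Tbx6) and 0 a WT-alone one. All 4 were called higher, although Tagln was not called with DESeq2 or when any library was left out, and over the whole list 17 of 18 tested genes were higher. Of 20 matrix and fibroblast genes, 4 had a KO-alone loop (Col1a1, Col5a1, Loxl1 and Sparc) and 2 a WT-alone one, and 3 of the 4 were higher while Sparc, a collagen-binding glycoprotein gene, fell by 0.80 ± 0.030 on the log2 scale (edgeR adjusted p 1.12e-17). Over the whole matrix list 15 of 18 tested genes were higher and 2 lower. None of 20 neuronal or 20 endoderm genes had a KO-alone loop. Of 17 primed epiblast genes, 3 had one (Dnmt3a, Dnmt3b and Etv5) and 4 a WT-alone loop. Sox10 alone of 13 neural crest genes, Eng alone of 10 endothelial and blood genes, Yy1 alone of 16 loop architecture genes and 0 of 10 trophoblast genes had one.

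**Figure D5:**
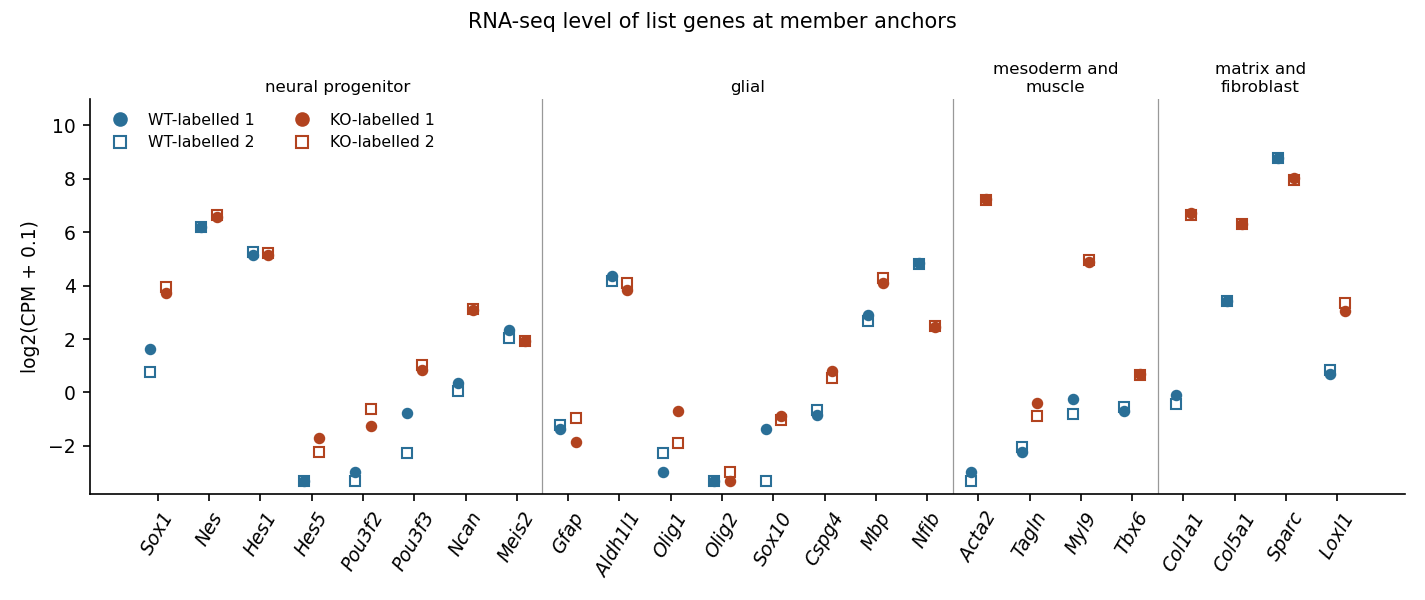
RNA-seq level of each library as log2(CPM + 0.1) for the genes of 4 lists that have a KO-alone loop at a start window; blue marks WT-labelled and red KO-labelled libraries, with discs for replicate 1 and open squares for replicate 2. Among the glial genes Gfap, Olig1, Olig2 and Sox10 sit near the bottom in all 4 libraries, while Acta2 and Col1a1 are separated by label.

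Krüppel-like and Sp factor genes had 9 of 21 members with a KO-alone loop and 8 with a WT-alone one. Over all genes these were 3297 and 2177 of 34610. Klf6, an immediate-early family member, had 2 KO-alone loops with 16 and 21 tags and rose from 42.8 and 45.9 CPM to 173 and 172 CPM (1.96 ± 0.047, edgeR adjusted p 1.04e-21). Klf13 had 1 loop of 22 tags and rose from 65.7 and 65.5 CPM to 128 and 134 CPM (1.00 ± 0.046, edgeR adjusted p 5.05e-16). Klf9, a hormone-responsive member with 2 KO-alone and 4 WT-alone loops, rose by 0.67 ± 0.037 on the log2 scale (edgeR adjusted p 1.86e-14). In all, 5 of the 9 were higher and 3 lower, against 12 and 6 of the 21 genes of the list; the lower calls of Klf16 and Sp2 did not hold under scaling by library size alone, where Sp2 stood at 0.00042. Polymerase II and Mediator genes had 3 of 18 with a KO-alone loop (Polr2e, Cdk9 and Med24), all called lower, the call of Cdk9 not under scaling by library size alone (edgeR adjusted p 0.429). Of all 18 genes of that list, 12 were lower and 4 higher.

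The 12 largest RNA rises among genes at KO-alone anchors were at genes with 1 to 4 such loops. Acta2, the smooth muscle actin gene, had 1 loop of 10 tags over 10.9 kb. Its counts were 1, 0, 5226 and 5289, a ratio of 9410 (exact 95% interval 1690 to 372000, counting error only). Col1a1, the type I collagen gene, had 3 loops of 27, 18 and 18 tags and rose from 0.826 and 0.650 CPM to 106 and 101 CPM (7.1 ± 0.11, edgeR adjusted p 1.95e-25). The immediate-early genes Egr1 and Egr3 had 3 loops with 66 tags and 1 loop of 15 tags. Egr1 rose from 0.256 and 0.434 CPM to 80.0 and 76.8 CPM (7.86 ± 0.14, edgeR adjusted p 2.53e-24), and Egr3 counts were 0, 0, 222 and 213, at least 64.9-fold higher against a floor of 3 counts per WT-labelled library. Windows of Col1a1, Egr1 and Egr3 are at either end. Igfbp5, an insulin-like growth factor binding protein gene, and Dusp4, a MAP kinase phosphatase gene, rose by 6.92 ± 0.20 and 6.26 ± 0.096 on the log2 scale, each with 1 loop of 14 and 11 tags (edgeR adjusted p 4.12e-20 and 1.55e-25). The remaining 6 of the 12 largest rises were Catsperg1, Trib2, Myl9, Rin3, Arsi and Zfp467, with 5.38 to 6.66 on the log2 scale and 1 to 4 loops each. Of these, 4 moved by over 1.5-fold when a WT-labelled library was left out: without WT-labelled replicate 1 or 2, Arsi stood at 4.34 or 8.22, Catsperg1 at 5.67 or 8.83, Rin3 at 7.55 or 4.69 and Zfp467 at 6.08 or 4.98.

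Large falls were also seen at KO-alone anchors. Ckb, the brain creatine kinase gene, had 7 loops with 123 tags and fell from 1120 and 1120 CPM to 154 and 150 CPM (-2.88 ± 0.028, edgeR adjusted p 1.67e-29). Inhbb, the inhibin beta B subunit gene, had 1 loop of 11 tags and fell from 14.1 and 15.3 CPM to 0.321 and 0.307 CPM (-5.53 ± 0.24, edgeR adjusted p 1.82e-16). At these 2 genes strong loops of the KO-labelled list stood beside lower RNA in the libraries of that label. Ckb also had 1 WT-alone loop of 35 tags and 4 shared strong loops, and Inhbb had 1 shared strong loop. Accsl and Mylpf, a fast muscle myosin light chain gene, had log2 fold changes of -6.69 ± 0.18 and -4.06 ± 0.061 (edgeR adjusted p 7.83e-21 and 2.29e-23). They had 1 and 2 KO-alone loops with 16 and 39 tags, and 1 and 3 WT-alone loops with 17 and 42 tags. Further large falls were those of Apom, Sall3, Cd80, Slc4a5, Aoc3, Rnd1 and Zfp428, at -3.89 to -2.72, each with 1 or 2 loops. Ccnd1, which drives entry into the cell cycle, had 11 KO-alone loops with 248 tags at either end, 1 WT-alone and 4 shared strong loops. Its RNA fell from 196 and 200 CPM to 74.7 and 85.5 CPM (-1.30 ± 0.049, edgeR adjusted p 9.22e-16).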

How the data were processed

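The authors deposited raw gene counts for each RNA-seq library, keyed by symbol; HISAT2 2.1.0, featureCounts 2.0.3 and the build mm10 stand in the submitters' processing notes. Rows that name no gene took 20.4% to 22.5% of each column and were left out. The strand setting is not given in the sources used here, so reads of a gene and of its antisense or overlapping neighbour may be mixed. The HiChIP loop lists, deposited by the authors, 1 pooled list per genotype, hold for each loop 2 anchors, its tag count and its q-value (false discovery rate). The submitters' notes list MACS2 2.2.7.1, HiC-Pro 2.11.1 and Bowtie2 2.4.4 and no loop caller. Anchors were called in each list separately. ChIP-seq samples were not analysed here.

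Counts were filtered with filterByExpr, scaled with TMM and tested two-sided with edgeR 4.0.16 (glmQLFit with robust estimation; Benjamini-Hochberg over 17273 genes), without a replicate block; the script was tested on simulated data. P-values measure the spread between 2 samples per label. Start windows came from RefSeq tables (GRCm38.p6), and 24923 of their 34610 genes matched a count row, 601 through an older symbol. Loop lists were read with Python 3.11.15. Folds against a group at 0 used a floor of 3 counts per library.

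Genes were named by a fixed rule: 6 set genes, the 15 strongest loops, 3 genes per list with most tags, the 12 largest rises and falls with 5 CPM or more in the higher group (1 gene that the rule names is not reported here), and 5 hubs; genes with many loops in their bodies, group genes and lineage genes beyond these were named after their values were seen. The loops and the 14 gene lists were chosen with earlier results of these data known. Alternatives covered tags, overlap, anchor width, false discovery rate, window, scaling, filter, DESeq2 1.42.0, block and left-out libraries.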

Additional observations from a re-analysis of the deposited data

How the results depend on the processing

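With a minimum of 15, 20 or 25 tags (25 added after seeing the data) there were 3108, 1618 and 894 KO-alone loops. The share with both anchors at WT-labelled anchors was then 4.89%, 5.81% and 5.37%, the median span 15.2, 15.4 and 15.2 kb, and the share with start windows at both anchors 19.8%, 20.5% and 22.4%. The share with a window at 1 or both anchors was 61.8% as reported, and 64.1% and 66.2% at 20 and 25 tags. Requiring an overlap of 50% of the anchor added loops that a WT-labelled loop joins under the 1-base rule. It gave 18.2% with both anchors at WT-labelled anchors and a median span of 18.4 kb. Windows stood at both anchors in 23.5% and at 1 or both in 65.9%. Widening anchors by 5000 bases gave 3.07%, 17.2% and 59.7% for the 3 shares in that order. A false discovery rate of at most 0.01 gave a median span of 19.6 kb and windows at 1 or both anchors in 63.3%. Windows of 0 and 10000 bases put a start at both anchors in 12.1% and 46.7% and at 1 or both in 54.7% and 76.7%. Genes at anchors called higher and lower numbered 268 and 175 at 20 tags and 174 and 93 at 25, where fewer genes were tested. Leaving out 1 library gave 846 to 891 higher and 662 to 680 lower at the anchors, and 5781 to 6235 and 5878 to 6038 over all genes. The 2 replicate numbers share only a number (correlation of their deviations 0.0153); a replicate block gave 900 higher and 692 lower at the anchors, 6298 and 6112 over all genes, and changed no call of a named gene. Scaling by library size alone reversed Etv5 (0.018), Yy1 (0.061), Septin9 (0.11), Hes1 (0.18) and Sp2 (0.00042); DESeq2 size factors kept the direction and call of all 94 named genes tested. Leaving out 1 library left 1 sample in its group, which is assumed to vary like the other group. Loop tags have no replicates, so their limit is 1 pooled list per label.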
